A study of Mus musculus with 3 samples.

Results

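The *Rspo2* glutamatergic neurons of the adult mouse basolateral amygdala (BLA) were taken from single-nuclei RNA sequencing (snRNAseq) as 156 nuclei, 108 in library 2 and 48 in library 3. They were chosen among 1306 glutamatergic barcodes of these libraries (819 and 487), out of 9199 barcodes in the whole series. In this assay RNA is tagged with a barcode for the nucleus it came from and with a random tag for the molecule, the unique molecular identifier (UMI), and reads with the same tags count as 1 UMI. A barcode was kept with more than 200 genes and less than 20% mitochondrial UMIs. It counted as glutamatergic with at least 1 UMI of *Slc17a7* or *Slc17a6*, the vesicular glutamate transporters, and none of *Gad1* or *Gad2*, the enzymes that make GABA. It also had less than 0.1% of its UMIs from *Slc1a2* and *Slc1a3*, the glutamate transporters of astrocytes. An *Rspo2* nucleus further had at least 2 UMIs of *Rspo2* and fewer than 2 of *Rorb*, a nuclear receptor gene that marks other BLA neurons. These 8 genes chose the nuclei, so their values are given as descriptions without a test.

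All libraries came from males at postnatal day 56, each from BLA pooled from both hemispheres of 4 brains of a litter. There was no other condition. The mice are taken to be wild-type C57BL/6NRj, the strain of the study's wild-type animals, although the methods do not state it for the sequenced mice. The dissection was practised on mice with Rspo2-cre and tdTomato, whose fluorescence outlines the basal amygdala, and the methods name no transgene for the sequenced mice. After both filters 3772 barcodes were left in library 2 and 4512 in library 3. Library 1, with 819 barcodes, held 58 glutamatergic barcodes and 3 that met the rule (5.17%, exact 95% interval 1.08 to 14.4), and enters only where stated. Neither the labels nor the methods settle whether libraries 2 and 3 came from separate pools of brains, so p-values measure only the spread between these libraries, which may be technical, and with 2 libraries no exact permutation test could reach 0.05. All intervals given cover counting error only. Libraries 2 and 3 shared 7 barcode sequences, and none of them was an *Rspo2* nucleus in both.

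R-spondin 2, the protein that *Rspo2* encodes, is a secreted factor that strengthens Wnt signalling. It binds Lgr receptors together with the membrane ubiquitin ligases Znrf3 and Rnf43, which otherwise remove Frizzled receptors from the cell surface. In the amygdala, *Rspo2* is known as a marker of large projection neurons of the anterior basal nucleus. Genetic studies in mice tie these neurons to aversive behaviour. *Ppp1r1b* was described as a marker of posterior neurons tied to reward, but the study states that later work challenged this. The genes *Sema3e*, *Npsr1*, *Dkk3* and *Etv1* accompany *Rspo2* as markers here. Sema3E is a secreted semaphorin that guides axons and vessels through the receptor plexin D1, and *Npsr1* encodes the receptor of neuropeptide S, a peptide that acts on arousal and anxiety. Dkk3 is a secreted glycoprotein of the Dickkopf family, whose other members block Wnt receptors, and Etv1 is an ETS-family transcription factor.

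*Rspo2* lies on the minus strand of chromosome 15 (GRCm38, 43020794 to 43170826). *Sema3e* lies on the plus strand of chromosome 5 (14025276 to 14256689) and *Npsr1* on the plus strand of chromosome 9 (24097996 to 24316398). *Dkk3* is on the minus strand of chromosome 7 (112116017 to 112159057) and *Etv1* on the plus strand of chromosome 12 (38779380 to 38870484).

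*Rspo2* nuclei made up 13.2% of the glutamatergic barcodes in library 2 (exact 95% interval 10.9 to 15.7) and 9.86% in library 3 (7.36 to 12.9), which gave 11.5% ± 2.36 (SD, n = 2 libraries). Reduced at random to 8400 UMIs per nucleus, with shallower barcodes left out, the shares were 9.98% and 10.2%, so that the libraries differed less at equal depth. The median *Rspo2* nucleus had 21936.5 UMIs in library 2 and 15326 in library 3, against 9202 and 8681 in glutamatergic barcodes without any *Rspo2* UMI. Comparisons between the groups were therefore made on nuclei paired 1 to 1 by UMI total within a library.

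Within the chosen nuclei the *Rspo2* count was spread widely. The median was 4 UMIs in both libraries and the maximum 27 in library 2 and 15 in library 3, while 37 and 13 nuclei sat at the threshold of exactly 2. Summed over the nuclei, *Rspo2* stood at 211 and 269.9 counts per 1000000 UMIs of the summed nuclei (CPM). In oligodendrocyte barcodes, which should lack the gene, it stood at 8.08 and 5.07 CPM. Thinned to 800 UMIs per barcode, 18.5% and 20.8% of *Rspo2* nuclei still showed the gene, against 1.68% and 0% of 119 and 163 oligodendrocyte barcodes (0 of 163 allows up to 2.24%, exact 95% interval). The limit on *Rorb* removed 8 and 5 barcodes with at least 2 *Rspo2* UMIs. Those barcodes carried *Sema3e* at 157 and 144 CPM, *Npsr1* at 375 and 75.6 CPM and *Etv1* at 273.7 and 110 CPM.

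*Slc17a7* and *Slc17a6* chose the nuclei and say nothing of the label. *Slc17a7* was found in 98.1% and 100% of *Rspo2* nuclei, and *Slc17a6* in 8.33% and 12.5%, against 24.7% and 30.0% of nuclei without *Rspo2*. Genes of pallial glutamatergic neurons that the rule did not use were present. *Neurod2* stood at 13.9 and 20.7 CPM, against 0.56 and 1.51 CPM in GABAergic barcodes, and *Nrgn* at 54.6 and 54.0 CPM, against 14.3 and 16.1 CPM. None of the 6 genes of this identity list that could be tested, apart from the rule genes, passed the test between *Rspo2* nuclei and matched nuclei without *Rspo2*, where 5.39% of all genes did.

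All 4 accompanying markers were more abundant in *Rspo2* nuclei than in nuclei without it, in both libraries, but GABAergic or astrocyte barcodes came close to or above them for some. Of *Npsr1*, *Rspo2* nuclei held 405 and 339 CPM. *Rorb* nuclei were the next class among those compared, at 132 and 171 CPM. This leaves aside nuclei with 1 *Rspo2* UMI and barcodes with at least 2 UMIs of both *Rspo2* and *Rorb*. GABAergic barcodes held 40.3 and 50.9 CPM. *Sema3e* stood at 121 and 89.6 CPM in *Rspo2* nuclei, only somewhat above the 73.4 and 81.4 CPM of GABAergic barcodes, whereas nuclei without *Rspo2* held 19.3 and 15.3 CPM. *Dkk3* stood at 89.8 and 41.3 CPM in *Rspo2* nuclei and at 78.8 and 59.1 CPM in astrocyte barcodes, so that these classes overlapped. *Etv1* stood at 215 and 220 CPM, against 114 and 109.7 CPM in nuclei without *Rspo2*, and nuclei chosen for *Etv1* were higher by construction. No test was made on these unmatched sums, and depth-matched tests against some of the classes follow.

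**Figure D1:**
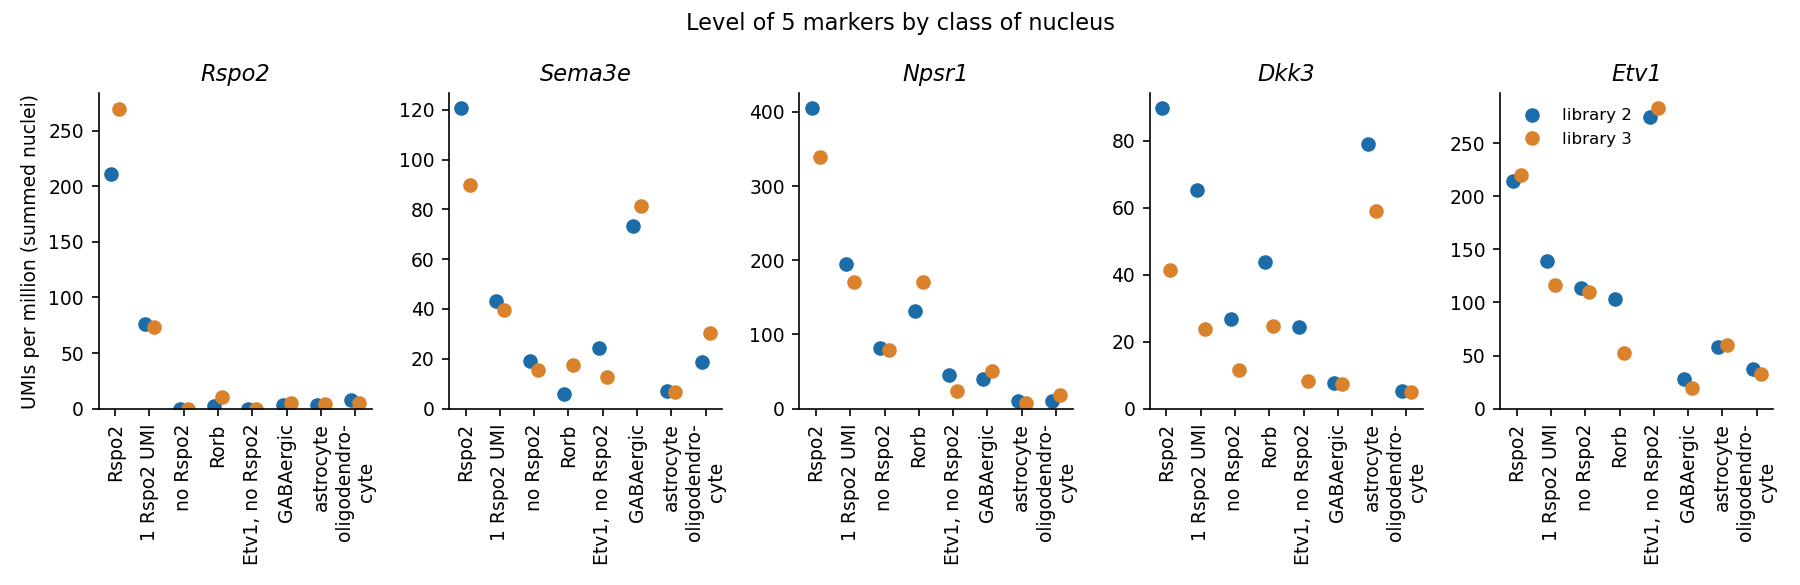
Level of the 5 markers, in CPM over the summed nuclei of a class (vertical axis, linear from 0), by class of nucleus, with a point for each of libraries 2 and 3. *Rspo2* itself and, in its own class, *Etv1* chose the nuclei. *Npsr1* was highest in *Rspo2* nuclei (405 and 339), while GABAergic barcodes came close for *Sema3e* (73.4 and 81.4). For *Dkk3*, astrocyte barcodes (78.8 and 59.1) were below *Rspo2* nuclei (89.8 and 41.3) in library 2 and above them in library 3.

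The main comparison set *Rspo2* nuclei against depth-matched glutamatergic nuclei with no *Rspo2* UMI and asked what else distinguishes them. It used 107 pairs of nuclei in library 2 (median depths 21859 and 21977 UMIs) and 48 pairs in library 3 (15326 and 15302.5), summed to 4 profiles and tested with edgeR with library as a term. Of 9487 genes tested, 511 passed an adjusted p of 0.05 (5.39%), 244 higher (2.57%) and 267 lower (2.81%) in *Rspo2* nuclei. Without the rule genes, 243 were higher and 264 lower. The limit on *Rorb* held for *Rspo2* nuclei only, and 25 of 107 and 12 of 48 matched nuclei had a *Rorb* UMI. With fewer than 2 *Rorb* UMIs required of the comparison nuclei too, 65 of the 66 called genes named had a value. All 65 kept their call. Without library as a term (no replicate block) 159 genes passed, with DESeq2 162, and in nuclei thinned to 8400 UMIs 99. With the few nuclei of library 1 added and library 2 or library 3 left out, 16 and 6 genes passed.

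*Npsr1* stood at 414 CPM in library 2 against 58.3 CPM in the matched nuclei, and at 339 against 40.7 CPM in library 3. The sums of each library were apart, although 43 of 107 and 20 of 48 *Rspo2* nuclei carried the gene and 15 and 6 matched nuclei did too, 1 of them with 54 of the 135 UMIs of library 2. The log2 fold change was 2.93 ± 0.13 (SE; edgeR, adjusted p = 1.37e-08). *Sema3e* stood at 122 against 16.8 CPM and at 89.6 against 1.16 CPM (3.25 ± 0.29, edgeR, adjusted p = 6.97e-06). The matched nuclei of library 3 held a single *Sema3e* UMI, and in library 2 a single nucleus gave 13 of their 39. *Dkk3* stood at 91.1 against 35.4 CPM and at 41.3 against 8.15 CPM (1.54 ± 0.22, edgeR, adjusted p = 0.000398). *Etv1* was the weakest of the 4, at 209 against 155 CPM and 220 against 94.3 CPM (0.74 ± 0.16, edgeR, adjusted p = 0.0105). That all 4 were higher is no independent evidence, since they were listed as markers with results of these libraries known. Without the library term *Dkk3* and *Etv1* missed the threshold (adjusted p = 0.0532 and 0.0821). Both also missed it in thinned nuclei, and *Etv1* with DESeq2 and with *Rspo2* at 3 UMIs or more. Over all alternatives with a test the adjusted p of *Dkk3* ran from 1.13e-22 to 0.182 and that of *Etv1* from 1.19e-18 to 1, with *Rspo2* nuclei higher in each.

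**Figure D2:**
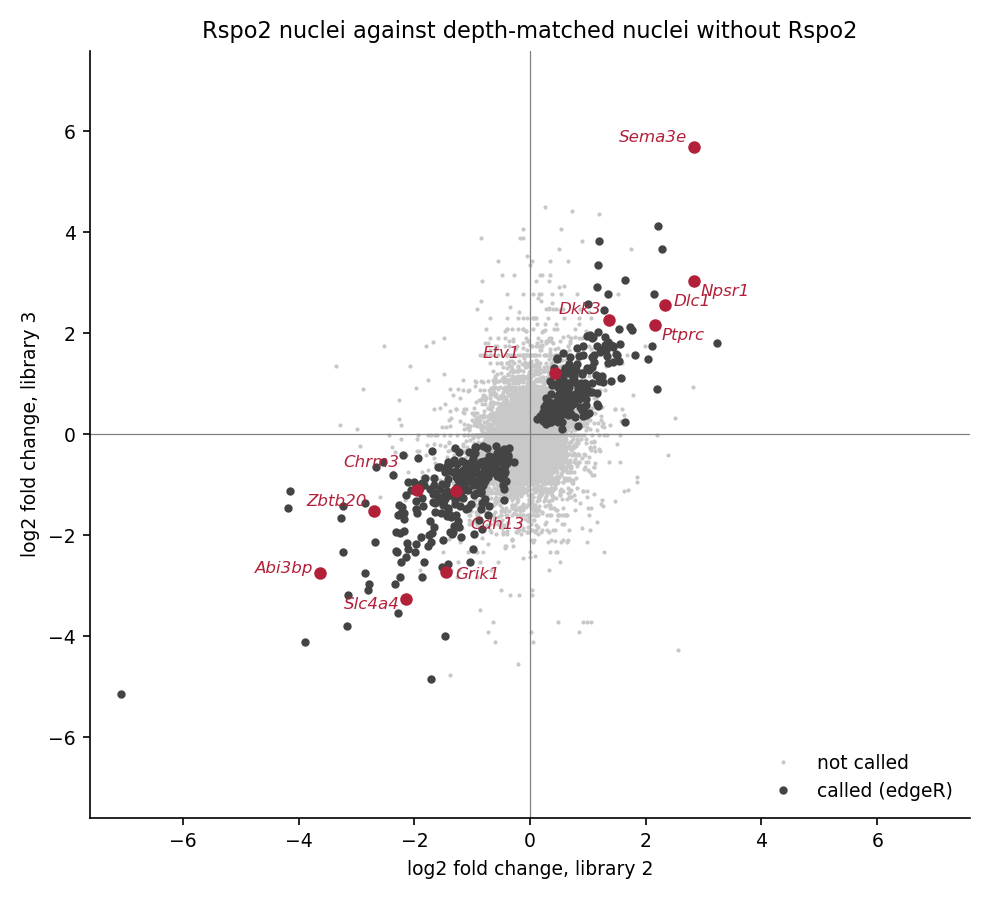
Log2 fold change of each tested gene outside the rule in library 2 (horizontal axis) and library 3 (vertical axis), *Rspo2* nuclei against depth-matched nuclei without *Rspo2*; dark points passed the edgeR test and red points are named. *Npsr1* (414 against 58.3 and 339 against 40.7 CPM) and *Sema3e* lie far to the upper right, and *Abi3bp* and *Slc4a4* to the lower left.

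The 12 genes with the highest fold changes among those at 20 CPM or more in both libraries, *Npsr1* and *Sema3e* included, had varied roles. *Dlc1*, which encodes a GTPase-activating protein, stood at 503 against 100.1 CPM in library 2 and 465 against 78 CPM in library 3. It was found in 99 of 107 *Rspo2* nuclei and 40 of 48, against 58 of 107 and 27 of 48 matched nuclei (2.45 ± 0.12, edgeR, adjusted p = 2.16e-08). *Oprk1*, the kappa opioid receptor gene, stood at 38.8 against 8.63 CPM and at 27.6 against 3.49 CPM (2.34 ± 0.31). *Frem1*, a gene of the extracellular matrix, stood at 112 against 27.2 CPM and at 89.6 against 31.4 CPM (1.91 ± 0.19). *Itgbl1*, a gene for an integrin-like secreted protein, stood at 204 against 60 CPM and at 139 against 32.6 CPM (1.88 ± 0.15). *Arhgef6* and *Car2*, a carbonic anhydrase gene, were higher by 2.01 and 1.88 on the log2 scale. *Col5a2*, a collagen gene (2.22 in library 2 and 4.12 in library 3, where the matched nuclei held 1 UMI), and *Vxn* (1.65 and 3.05) differed more between libraries. The genes were chosen to have the same sign in both libraries. *Car2* lost its call with DESeq2, and *Car2*, *Arhgef6*, *Col5a2*, *Vxn*, *Oprk1*, *Cfap299* and *Ptprc* lost theirs in thinned nuclei.

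The genes *Ptprc* and *Cfap299* were also among the 12 highest, although they are known from other cells. *Ptprc*, which encodes the CD45 phosphatase of leukocytes and microglia, stood at 54.7 against 12.1 CPM in library 2 and 43.6 against 9.31 CPM in library 3 (2.21 ± 0.25, edgeR, adjusted p = 6.55e-05). It was found in 46 of 107 and 17 of 48 *Rspo2* nuclei. Of 7 microglial markers, *C1qa*, *C1qb* and *Tmem119* were at 0 in *Rspo2* nuclei of both libraries, and the list's summed level was 23 against 22.9 CPM in library 2 and 11.5 against 68.7 CPM in library 3, with *P2ry12* the most abundant at 14.7 and 4.59 CPM. *Cfap299*, a gene of cilia and flagella, stood at 32.5 against 6.47 CPM and at 51.7 against 3.49 CPM (2.77 ± 0.34, edgeR, adjusted p = 0.000135), in 33 of 107 and 20 of 48 nuclei. The other ependymal markers *Foxj1*, *Ccdc153* and *Tmem212* summed to little beside it: the whole list held 33.7 CPM in library 2, and in library 3 *Cfap299* alone had a UMI. Both genes missed the threshold in thinned nuclei.

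Among the 12 lowest genes chosen likewise, several were carried by a small part of the matched nuclei. *Abi3bp*, a matrix gene, stood at 3.56 against 46.2 CPM in library 2 and at 5.74 against 41.9 CPM in library 3 (-3.38 ± 0.33, edgeR, adjusted p = 1.46e-05). In the matched group 14 of 107 and 12 of 48 nuclei carried it. *Slc4a4*, a sodium bicarbonate cotransporter gene, stood at 14.7 against 65.2 CPM and 14.9 against 149 CPM (-2.54 ± 0.24). *Glra3*, a glycine receptor subunit gene, stood at 25.4 against 109.6 CPM and 29.9 against 147 CPM (-2.14 ± 0.17), and was more evenly spread, in 73 of 107 and 33 of 48 matched nuclei. *Kctd8*, an auxiliary subunit of GABA-B receptors, *Unc13c*, a presynaptic priming factor, *Reln* and *Meis1* were lower by 2.64, 2.30, 2.19 and 2.35 on the log2 scale, as was *Chn2* (2.14). *Pld5* stood at 7.53 against 73.8 CPM and 11.5 against 37.3 CPM (-3.26 in library 2 and -1.65 in library 3). The non-coding gene *Gm49164* had the largest fold change of the 12 (-4.15), but 43 of its 47 UMIs in the matched nuclei of library 2 came from a single nucleus. *Gm45321* and *4930467D21Rik* (-1.71 in library 2 and -4.84 in library 3), both non-coding, completed the 12. *Reln*, *Chn2*, *Gm49164*, *4930467D21Rik* and *Meis1* lost their call with DESeq2, and the same genes other than *Meis1*, with *Pld5*, lost it in thinned nuclei. *Mybpc1*, singled out after its values were seen, had no UMI in these *Rspo2* nuclei and stood at 26.3 and 19.8 CPM in the matched nuclei.

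Of 8 further genes that the study uses to mark BLA glutamatergic neurons, *Adamts2* and *Etv1* were higher and *Cdh13*, *Grik1* and *Lypd1* lower, against 5.39% of all genes called. These were chosen by the study on these libraries and are not independent evidence of a direction. *Cdh13*, a cadherin without a cytoplasmic domain, stood at 246 against 599 CPM in library 2 and 410 against 892 CPM in library 3 (-1.18 ± 0.10, edgeR, adjusted p = 4.88e-06). *Grik1*, a kainate receptor subunit gene, stood at 64.6 against 177 CPM and at 52.8 against 352 CPM (-1.90 ± 0.20, edgeR, adjusted p = 3.39e-05). In library 2 it was found in 22 of 107 *Rspo2* nuclei and 45 of 107 matched nuclei. In library 3 the numbers were close, 15 of 48 and 17 of 48, and 5 matched nuclei held 67.9% of the 302 UMIs of their group. *Lypd1*, which encodes a modulator of nicotinic receptors, stood at 149 against 269 CPM and 184 against 342 CPM (-0.84 ± 0.11), so that it was lower in *Rspo2* nuclei but present in 65.7% and 70.8% of them. *Esr1*, the estrogen receptor gene, stood at 25 against 46.2 CPM and 17.2 against 57 CPM (-1.10 ± 0.24). With at least 2 *Slc17a7* UMIs required of every nucleus its difference was 0.050 and no longer passed, and it also lost its call with DESeq2, with *Rspo2* at 3 UMIs or more and in thinned nuclei. *Adamts2*, a matrix protease gene, was higher, at 76.8 against 43.6 CPM and 128 against 38.4 CPM (1.17 ± 0.20), but lost its call in thinned nuclei. In library 2 it was found in nearly as many matched nuclei (36 of 107) as *Rspo2* nuclei (40 of 107). In library 3 it was found in 15 of 48 and 21 of 48. *Otof*, *Sema5a*, *Bdnf*, *Fezf2* and *Pde11a* did not pass the test, and *Ppp1r1b*, at 1.55 and 1.15 CPM in *Rspo2* nuclei, was too low to be tested. Without the library term *Cdh13* (adjusted p = 0.0713) and *Lypd1* (0.0904) missed the threshold, with ranges over the alternatives of 7.09e-63 to 0.32 and 8.19e-12 to 1.

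Few genes of the Wnt pathway other than *Rspo2* itself passed the test, as among all genes. Of its ligands, none of the 3 tested passed. *Wnt4* stood at 11.9 against 9.93 CPM and 9.19 against 5.82 CPM. Of the receptors and ligases none of 7 passed, among them *Lgr4*, at 31.7 against 54.8 CPM and 39.1 against 44.2 CPM (-0.56 ± 0.21, edgeR, adjusted p = 0.194), and *Znrf3*, at 82 against 88.9 CPM and 97.6 against 114 CPM. *Dkk3* was the only called gene of 2 inhibitors, and of 13 intracellular genes *Pygo1*, a nuclear cofactor of beta-catenin, was lower (18.2 against 38.4 and 29.9 against 46.6 CPM, -0.88 ± 0.23), and lost its call without the library term. *Pygo1* also lost it with DESeq2, with *Rspo2* at 3 UMIs or more, with *Slc17a7* at 2 or more and in thinned nuclei. Against 5.39% of all genes, 2 of these 25 genes passed, so that the count was not far from that share. *Dkk3*, among the 2, was listed as a marker with results of these libraries known.

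Receptor genes for transmitters and peptides differed in both directions, often within a family. Against 5.39% of all genes called, 5 of 13 neuropeptide receptor genes and 6 of 13 receptor genes for monoamines and acetylcholine passed. *Npsr1* is among the 5 and was listed as a marker with results of these libraries known. Among the neuropeptide receptor genes, *Npsr1*, *Oprk1* and *Oprd1* were higher and *Oprm1* and *Trhr* lower. The delta opioid receptor gene *Oprd1* stood at 55.9 against 21.2 CPM in library 2 and 29.9 against 14 CPM in library 3 (1.36 ± 0.24). The mu receptor gene *Oprm1* stood at 36.8 against 61.3 CPM and 26.4 against 81.5 CPM (-0.98 ± 0.21). *Oprd1* and *Oprm1* lost their call with DESeq2, and all 3 opioid receptor genes, *Oprk1* included, lost it in thinned nuclei. *Oprm1* also lost it with *Rspo2* at 3 UMIs or more and with *Slc17a7* at 2 or more. Among those for monoamines and acetylcholine, *Chrm2* and *Htr1f* were higher and *Chrm3*, *Htr2a*, *Htr2c* and *Htr7* lower. *Chrm2*, a muscarinic receptor gene, stood at 136 against 60.4 CPM and 202 against 59.4 CPM (1.42 ± 0.16). *Chrm3*, another muscarinic receptor gene, stood at 69.3 against 269 CPM and 145 against 311 CPM (-1.55 ± 0.17). Of the serotonin receptor genes, *Htr1f* stood at 569 against 296 CPM and 544 against 268 CPM (1.01 ± 0.10) and *Htr2c* at 308 against 517 CPM and 325 against 563 CPM (-0.73 ± 0.10). *Htr2c* lost its call without the library term, and *Htr2c* and *Chrm2* lost theirs in thinned nuclei.

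Among 23 glutamate receptor genes, 4 were higher (*Grik3*, *Grm8*, *Gria3* and *Grin2a*) and 4 lower (*Grik1*, *Grik2* and *Grik4* among them). Of all genes, 2.57% were higher and 2.81% lower. The list's median log2 fold change was 0.12, against -0.003 over all genes tested. *Grik1* was chosen as a marker by the study on these libraries. Of the kainate receptor genes, *Grik3* stood at 237 against 137 CPM and 192 against 79.2 CPM (0.98 ± 0.14), whereas *Grik2* stood at 1077 against 1702 CPM and 1414 against 2070 CPM (-0.57 ± 0.08) and *Grik4* at 32.5 against 66.5 CPM and 24.1 against 64 CPM (-1.11 ± 0.20). *Grm8*, a presynaptic metabotropic receptor gene, stood at 1315 against 641 CPM and 1122 against 627 CPM (0.98 ± 0.09). None of 14 GABA receptor genes passed, against 5.39% of all genes, a share at which a list this short could hold none. Of 54 potassium channel genes, 6 were higher and 5 lower, and of 30 sodium, calcium and HCN channel genes 1 and 3, beside the same 2.57% and 2.81%. *Kcnq5* (1670 against 1134 and 1813 against 1206 CPM, 0.61 ± 0.08) and *Kcnn2* (359 against 193 and 315 against 171 CPM, 0.92 ± 0.11), whose channels carry M-type and calcium-activated potassium currents, were higher, and *Kcnh5* was lower (35.3 against 119 and 44.8 against 179 CPM, -1.81 ± 0.16). Of the sodium, calcium and HCN channel genes, *Cacna1e* was higher (0.50 ± 0.08) and *Cacna1c*, *Cacna2d3* and *Scn9a* lower. *Grik2*, *Kcnq5* and these calcium channel genes, whose differences were small, lost their call without the library term. *Cacna1c* and *Scn9a* lost theirs with DESeq2, and *Cacna1e*, *Cacna1c*, *Cacna2d3* and *Scn9a* in thinned nuclei. *Scn9a* also lost it with *Rspo2* at 3 UMIs or more, and *Cacna1c* with *Slc17a7* at 2 or more.

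Of 46 axon guidance genes, 9 were higher and 10 lower, and of 23 cadherin genes 5 and 5, against 2.57% and 2.81% of all genes. The median log2 fold changes of these lists were -0.01 and -0.23. *Sema3e* is among the 9 and was listed as a marker with results of these libraries known. *Cdh13*, among the lower cadherin genes, was chosen as a marker by the study on these libraries. *Plxnd1*, which encodes the receptor of Sema3E, was low and lower still in *Rspo2* nuclei, at 7.92 against 19.4 CPM in library 2 and 9.19 against 29.1 CPM in library 3 (-1.38 ± 0.33, edgeR, adjusted p = 0.0215). *Slit2* stood at 587 against 272 CPM and 584 against 197 CPM (1.33 ± 0.12), and *Slit1* was also higher (0.47 ± 0.12). *Robo1*, which encodes a receptor for Slits, stood at 605 against 1150 CPM and 933 against 1412 CPM (-0.74 ± 0.09). *Plxna4* (1.07 ± 0.10) and *Dcc*, a netrin receptor gene (0.61 ± 0.08), were higher, and *Unc5d*, another netrin receptor gene (-0.98 ± 0.10), and *Sema3d* (-2.04 ± 0.39) lower, and *Unc5d* lost its call without the library term. Higher cadherin genes included *Cdh9* (712 against 291 and 782 against 229 CPM, 1.53 ± 0.12) and *Cdh11* (418 against 206 and 324 against 133 CPM, 1.15 ± 0.12), and lower ones *Cdh13*. Of the listed genes, those beyond the 4 with the smallest p in each list (*Plxnd1*, *Robo1*, *Slit1*, *Dcc*, *Sema3d* and *Grik4* among them) were singled out after their values were seen.

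Of 45 transcription factor genes of the pallium outside the rule, 5 were higher (*Etv1*, *Lmo4*, *Sox5*, *Tcf4* and *Zfpm2*) and 10 lower. Of all genes, 2.57% were higher and 2.81% lower. *Etv1* was listed as a marker with results of these libraries known. *Sox5* stood at 665 against 409 CPM and 732 against 299 CPM (0.99 ± 0.12), and *Lmo4* at 142 against 75.5 CPM and 126 against 37.2 CPM (1.18 ± 0.18). *Zbtb20* was far lower, at 36.8 against 241 CPM and 124 against 357 CPM (-2.11 ± 0.20), and *Meis2*, known from neurons of ventral origin, stood at 74.9 against 212 CPM and 72.4 against 311 CPM (-1.69 ± 0.15), and lost its call in thinned nuclei. *Mef2c* (-0.75 ± 0.09) and *Tox* (-1.01 ± 0.11) were lower too but lost their call without the library term. *Lmo4* and *Sox5* were singled out after their values were seen. Of 3 immediate early genes tested, *Nr4a3* was higher (32.9 against 11.2 and 26.4 against 9.31 CPM, 1.56 ± 0.28), against 2.57% of all genes higher. It lost its call with DESeq2, with *Slc17a7* at 2 UMIs or more and in thinned nuclei.

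Markers of other cells were called in both directions. Of the oligodendrocyte list 3 of 4 genes tested were lower in *Rspo2* nuclei, *Mobp* and *St18* among them, against 2.81% of all genes, and the list's sum was 84.4 against 126 CPM in library 2 and 123 against 169 CPM in library 3, with *Mbp* its most abundant gene at 66.9 and 81.5 CPM. *Lhfpl3*, which made up nearly the whole sum of the oligodendrocyte precursor list, was lower at 133 against 348 CPM and 271 against 406 CPM, while *Olig1* and *Olig2* were at 0 in both groups. *Adarb2*, known from interneurons, was lower at 42 against 176 CPM and 240 against 516 CPM, and made up most of its list's sum (45.5 against 178 CPM and 262 against 541 CPM), while *Dlx2* and *Dlx5* were at 0 in both groups. *Lhfpl3*, *Adarb2*, *Mobp* and *St18* lost their call without the library term. *Lhfpl3*, *Mobp* and *St18* also lost it with DESeq2, and *Lhfpl3*, *Adarb2* and *Mobp* with *Slc17a7* at 2 UMIs or more. In thinned nuclei *Adarb2* lost it. Of 5 tested markers of claustrum, endopiriform nucleus and subplate, *Ntng2* and *Oprk1* were higher, against 2.57% of all genes. Both lost their call in thinned nuclei, and *Ntng2* also without the library term and with DESeq2. *Ntng2* lost it too with *Rspo2* at 3 UMIs or more and with *Slc17a7* at 2 or more. *Cplx3*, a subplate marker, was at 0 in both groups. Neither of 2 vascular genes tested passed, against 5.39% of all genes, with *Cldn5* at 0 in *Rspo2* nuclei. The astrocyte list summed to 183 against 186 CPM and 154 against 240 CPM, but consisted mostly of *Slc1a2* (171 against 154 and 132 against 161 CPM), which the rule limits in both groups. With barcodes high in glial and vascular markers left out, 596 genes passed, although the 107 and 48 *Rspo2* nuclei compared were the same.

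**Figure D3:**
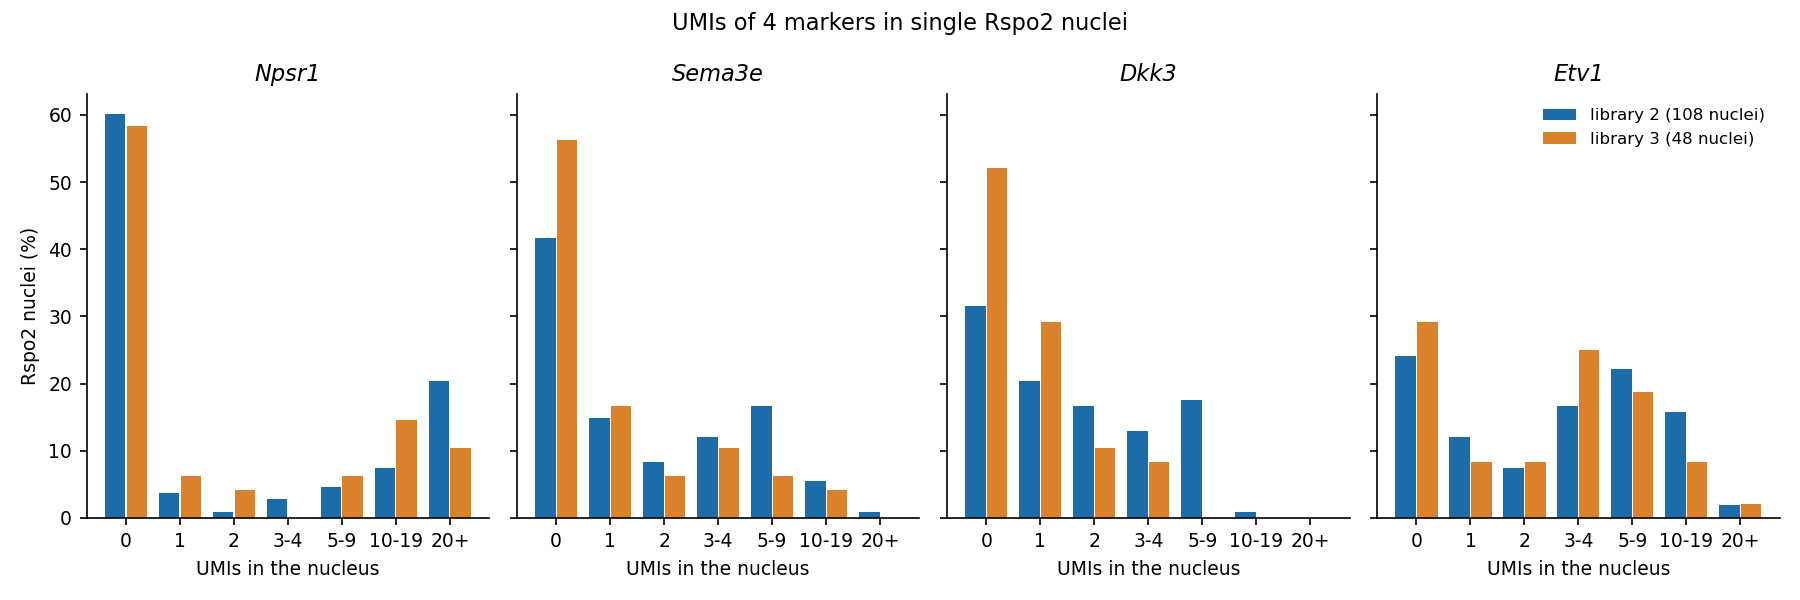
Share of *Rspo2* nuclei (vertical axis, percent) by their UMI count of *Npsr1*, *Sema3e*, *Dkk3* and *Etv1* (horizontal axis, binned), with a bar for each library (108 and 48 nuclei). *Npsr1* was at 0 in 65 and 28 nuclei and mostly at 5 UMIs or more in the rest, whereas the other genes filled the low counts.

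The 4 markers were not distributed alike over single *Rspo2* nuclei. *Npsr1* was found in 43 of 108 nuclei in library 2 (39.8%, exact 95% interval 30.5 to 49.7) and 20 of 48 in library 3 (41.7%, 27.6 to 56.8). Few nuclei had intermediate counts: 65 and 28 nuclei had no UMI, only 8 and 5 had 1 to 4, and 35 and 15 had 5 or more, with a maximum of 75 and 38. In oligodendrocyte barcodes, at median depths of 1945 and 2064 UMIs, 2.84% and 4.07% had a UMI, and thinned to 800 UMIs the shares were 25.9% and 14.6% of *Rspo2* nuclei against 0% of 119 (which allows up to 3.05%) and 1.84% of 163. Nuclei without *Npsr1* were not shallower, with median depths of 23027 and 16405.5 UMIs against 21859 and 13814 in those with 5 or more. *Dkk3* was spread over more nuclei of library 2 at lower counts. It was found in 68.5% and 47.9% of nuclei, with 3.14 and 1.57 UMIs on average where present, and no nucleus had more than 10. *Etv1* was found in 75.9% (66.7 to 83.6) and 70.8% (55.9 to 83), and *Sema3e* in 58.3% (48.5 to 67.7) and 43.8% (29.5 to 58.8). At an equal depth of 8400 UMIs, which 97 and 44 *Rspo2* nuclei reached, *Npsr1* was found in 36.1% and 34.1% of them, against 13.0% and 10.4% of 339 and 202 nuclei without *Rspo2*. *Sema3e* was found in 39.2% and 34.1%, against 8.55% and 5.45%, and *Dkk3* in 45.4% and 34.1%, against 15.9% and 9.41%. *Lypd1* was less frequent in library 2, at 46.4% (36.2 to 56.8) against 69.9% (64.7 to 74.7). In library 3 it was found in 63.6% (47.8 to 77.6) against 73.8% (67.1 to 79.7), so that the intervals overlapped there.

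Nuclei with at least 5 *Npsr1* UMIs and nuclei with none both carried *Rspo2*, at 226 and 203 CPM in library 2 and 337 and 247 CPM in library 3. *Dkk3* was higher in the former in both libraries, at 137 against 62.3 CPM and 65.7 against 32.1 CPM. *Adamts2* was higher as well, at 125 against 49.1 CPM and 215 against 115 CPM. *Otof*, a gene for a calcium sensor of vesicle release, was lower, at 34 against 114 CPM and 52.6 against 106 CPM. *Sema3e* (157 against 103, and 96.4 against 100.1 CPM) and *Cdh13* (69.2 against 343, and 530 against 376 CPM) differed in one library or in opposite directions. These groups of nuclei were defined from the counts, and no test was made between them.

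Nuclei in which more markers were found were deeper at the extremes. In library 2, 22 of 108 nuclei had a UMI of all 4 accompanying markers and 7 had none, and in library 3 these were 5 and 5 of 48. Median depths were 29463 UMIs for nuclei with all 4 and 9000 for nuclei with none in library 2, and 19360 and 10371 in library 3. In library 2, *Sema3e* was found in 57 of 82 nuclei with *Etv1* (69.5%) and in 6 of 26 without (23.1%). In library 3 the shares were 47.1% of 34 and 35.7% of 14, so that the difference was smaller there. Nuclei with *Etv1* were deeper, with medians of 25044.5 against 17621.5 UMIs in library 2 and 19215.5 against 11384 in library 3. *Npsr1* was found in 43.9% and 26.9% of nuclei with and without *Etv1* in library 2, and in 44.1% and 35.7% in library 3.

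The accompanying markers were lowest in nuclei without *Rspo2*, with the exception of *Etv1* in library 3, and were already higher in nuclei just outside the threshold. Depth was not matched here: nuclei with 2 *Rspo2* UMIs had a median of 16522 and 16389 UMIs and nuclei with 8 or more 38480 and 22396, whatever their *Rorb* count. The levels are those of nuclei with fewer than 2 *Rorb* UMIs. Just outside the threshold, nuclei with exactly 1 *Rspo2* UMI (74 and 30) held *Npsr1* at 197 and 115 CPM, and just inside it, nuclei with exactly 2 (37 and 13) held 381 and 182 CPM. *Sema3e* stood at 42.6 and 27.7 CPM with 1 UMI, at 75.1 and 59.1 CPM with 2, and at 206 and 105 CPM with 8 or more (20 and 9 nuclei). *Dkk3* stood at 23.9 and 9.11 CPM in nuclei with no *Rspo2*, at 64.9 and 25.4 CPM with 1 UMI and at 95.5 and 48.6 CPM with 8 or more. With exactly 2 UMIs *Dkk3* stood at 89.5 and 24.6 CPM, so that in library 3 nuclei with 1 and 2 *Rspo2* UMIs were alike in it. For *Etv1* in library 3, nuclei with 0 and 1 UMI held 121 and 118 CPM, and nuclei with 8 or more held 262 CPM. In library 2, *Cdh13* fell from 895 CPM with no *Rspo2* to 13.3 CPM with 8 or more, and *Grik1* from 229 to 6.63 CPM. In library 3 *Cdh13* did not follow that order, with 1101 CPM in the 10 nuclei with 5 to 7 UMIs, and *Grik1* stood at 82.2 CPM in the 9 nuclei with most. No test was made over these classes.

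**Figure D4:**
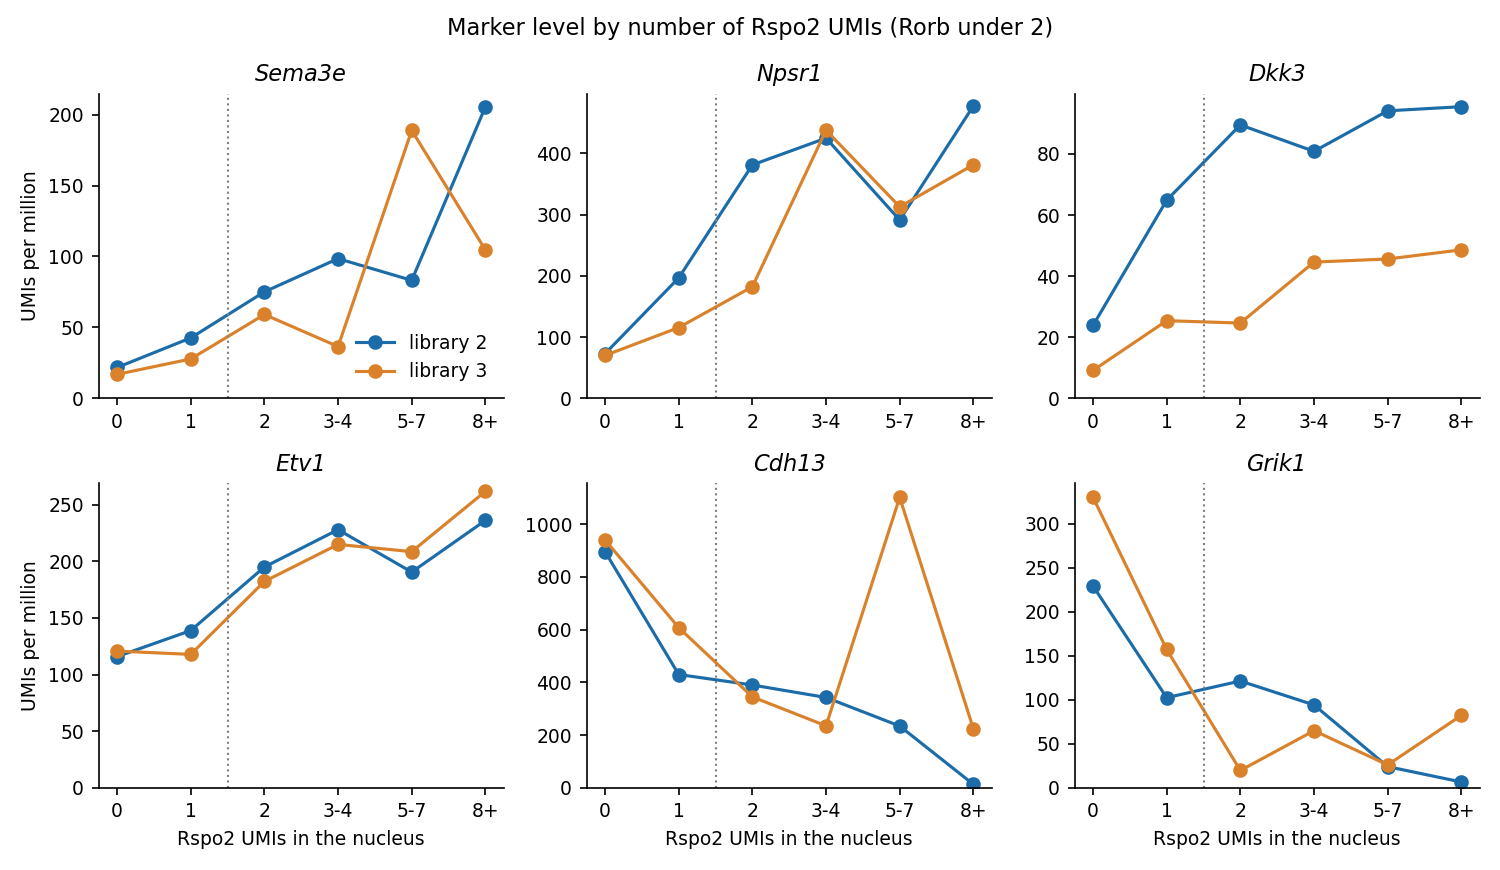
Level of 6 genes, in CPM (vertical axis, linear from 0), by the number of *Rspo2* UMIs in the nucleus (horizontal axis), with a line for each library; the dotted line marks the threshold of 2 UMIs. *Dkk3* rises from 23.9 and 9.11 with no *Rspo2* to 95.5 and 48.6 with 8 or more, and *Cdh13* and *Grik1* fall in library 2.

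*Rspo2* nuclei were next compared with *Rorb* nuclei, glutamatergic barcodes with at least 2 *Rorb* UMIs and fewer than 2 of *Rspo2*. This comparison and the next one use largely the same *Rspo2* nuclei as the main one, so that their results are not independent of it. In 61 and 41 depth-matched pairs, 622 of 7435 genes passed (8.37%), 258 higher (3.47%) and 364 lower (4.9%) in *Rspo2* nuclei. Without the library term 339 passed, and with DESeq2 171. *Sema3e* stood at 137 CPM against 5.95 CPM in *Rorb* nuclei in library 2 and at 99.6 against 19.1 CPM in library 3 (3.40 ± 0.33, edgeR, adjusted p = 1.94e-09). *Npsr1* was present in *Rorb* nuclei too and differed less, at 486 against 135 CPM and 338 against 175 CPM (1.41 ± 0.17, edgeR, adjusted p = 2.30e-07). *Etv1* stood at 230 against 104 CPM and 224 against 52.4 CPM (1.49 ± 0.20, edgeR, adjusted p = 9.36e-07), and *Dkk3* at 87.8 against 42.6 CPM and 41.8 against 23.8 CPM (0.96 ± 0.26, edgeR, adjusted p = 0.0136). *Adamts2* was higher in *Rspo2* nuclei, at 88.8 against 19.8 CPM and 140 against 23.8 CPM (2.32 ± 0.26), as was *Itgbl1*, at 193 against 19.8 CPM and 154 against 19.1 CPM (3.15 ± 0.25). *Dkk3* lost its call without the library term (adjusted p = 0.106, range over the alternatives 0.00867 to 1).

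Genes higher in *Rorb* nuclei included the potassium channel genes *Kcnk2* (5.05 against 79.3 and 7.21 against 55.6 CPM, -3.52 ± 0.38) and *Kcnh8* (2.02 against 28.7 and 1.44 against 22.2 CPM, -3.78 ± 0.61). *Col26a1*, a collagen gene, stood at 16.2 against 182 CPM and 7.21 against 87.4 CPM (-3.52 ± 0.28). *Mybpc1*, which encodes a myosin-binding protein, had no UMI in the matched *Rspo2* nuclei of either library and stood at 66.4 and 25.4 CPM in *Rorb* nuclei, at least 21.9-fold and 5.87-fold higher with a floor of 3 counts per library. It was carried by 5 of 61 and 2 of 41 *Rorb* nuclei only. *Pde11a*, a phosphodiesterase gene, was lower in *Rspo2* nuclei (6.06 against 47.6 and 13 against 41.3 CPM, -2.33 ± 0.40), and so were *Esr1*, *Lypd1* and *Cdh13*. *Otof* was higher (0.94 ± 0.26) and *Grik1* lower (-0.90 ± 0.28), but the groups were close in 1 library for each: *Grik1* stood at 66.6 against 61.5 CPM in library 2 and *Otof* at 69.3 against 58.8 CPM in library 3. Of 44 axon guidance genes 6 were higher and 12 lower, and of 48 potassium channel genes 3 and 10. Of all genes, 3.47% were higher and 4.9% lower. *Sema3e*, a marker listed with results of these libraries known, is among the 6. The non-coding genes *2310002F09Rik* (4.05 ± 0.47) and *Gm49164* (-4.63 ± 0.53) also stood apart, the latter through few *Rorb* nuclei. *Otof*, *Cdh13* and *Grik1* lost their call without the library term. With DESeq2, 13 of the 20 named genes lost it, among them *Kcnk2*, *Kcnh8*, *Mybpc1*, *Pde11a*, *Esr1*, *Dkk3*, *2310002F09Rik* and *Gm49164*.

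*Etv1* is shared with a larger set of BLA neurons, and *Rspo2* nuclei were therefore also compared with *Etv1* nuclei without *Rspo2* (at least 2 *Etv1* UMIs, no *Rspo2* and fewer than 2 *Rorb*). In 97 and 47 depth-matched pairs, 525 of 9065 genes passed (5.79%), 271 higher (2.99%) and 254 lower (2.8%) in *Rspo2* nuclei. Without the library term 107 passed, and with DESeq2 117. *Npsr1* was the clearest difference, at 464 CPM against 48.6 CPM in library 2 and 360 against 20.2 CPM in library 3 (3.54 ± 0.17, edgeR, adjusted p = 2.37e-17). *Sema3e* stood at 116 against 25.6 CPM and 95.1 against 6.30 CPM (2.56 ± 0.23, edgeR, adjusted p = 7.38e-10), and *Dkk3* at 92.1 against 24 CPM and 42.7 against 8.83 CPM (2.04 ± 0.24, edgeR, adjusted p = 8.99e-08). These 3 genes kept their call in each of the alternatives with a test. The *Rspo2* nuclei were not chosen for *Etv1*, which was found in 72 of 97 and 33 of 47 of them. *Frem1* (115 against 13.6 and 95.1 against 12.6 CPM, 3.07 ± 0.23) and *Cfap299* (2.73 ± 0.36) were higher, as was *Gm17171*, an antisense gene (2.29 ± 0.39). *Vgll3*, a transcriptional cofactor gene, stood at 2.30 against 43.9 CPM and 1.22 against 22.7 CPM (-4.14 ± 0.46), and was carried by 29 of 97 and 9 of 47 *Etv1* nuclei. *Pld5* (-2.85 ± 0.29), *Abi3bp* (-3.13 ± 0.37) and *Lypd1* (-0.84 ± 0.13) were lower, as were *Cdh13* (246 against 584 and 380 against 662 CPM) and *Grik1* (73.2 against 109.7 and 46.3 against 170 CPM). Of 53 potassium channel genes 7 were higher, *Kcnq3* and *Kcnq5* among them, and 1 lower, against 2.99% and 2.8% of all genes. *Adamts2*, *Cdh13*, *Grik1* and *Lypd1* lost their call without the library term, and *Vgll3*, *Gm17171*, *Adamts2* and *Grik1* with DESeq2.

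Within the *Rspo2* nuclei, those with at least 1 *Etv1* UMI were compared with those without, to ask whether *Etv1* divides them. Only 25 and 10 depth-matched pairs were available. Of 4176 genes tested, 4 passed (0.0958%), *Etv1* itself, which the groups were chosen by (1 higher, 0.0239%), and 3 lower (0.0718%), with 369 at an unadjusted p under 0.05. *Chrm3* stood at 10.9 CPM with *Etv1* against 260 CPM without in library 2, and at 0 against 348 CPM in library 3 (-4.96 ± 0.49, edgeR, adjusted p = 0.0273). It was found in 3 of 25 nuclei with *Etv1* and 11 of 25 without in library 2, and in 0 of 10 and 7 of 10 in library 3. *Sgcz*, a sarcoglycan gene, stood at 161 against 1105 CPM and 179 against 2176 CPM (-3.09 ± 0.27, edgeR, adjusted p = 0.0172). *Tenm3*, a teneurin gene of synaptic adhesion, stood at 91.3 against 630 CPM and 163 against 744 CPM (-2.52 ± 0.26, edgeR, adjusted p = 0.0274), and a single nucleus gave 179 of the 291 UMIs without *Etv1* in library 2. These genes were chosen for the same sign in both libraries, and none passed without the filter on low counts (adjusted p = 0.395, 0.341 and 0.395, ranges over the alternatives 1.73e-20 to 0.395, 6.21e-42 to 0.341 and 3.51e-23 to 0.395), where no gene was called. *Chrm3* also lost its call with DESeq2. *Npsr1* (389 against 282 and 522 against 506 CPM), *Dkk3* and *Sema3e* did not pass, and *Rspo2* stood at 198 against 201 CPM and 293 against 261 CPM. The count of calls was 76 with RLE factors, another scaling, and 52 without the library term.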

How the data were processed

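Nuclei of the adult BLA were sequenced in 3 droplet libraries. The deposited counts are UMI counts per gene and barcode, which the authors made with Cell Ranger 7.0.1 on mm10 and left unnormalized, for called cells. Library totals were 8078394, 24354374 and 33049068 UMIs for libraries 1, 2 and 3. Gene positions are from GENCODE vM21 (32158 of 32285 IDs, 99.6%).

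*Rspo2* nuclei were picked from these counts, matched 1 to 1 to comparison nuclei within 0.1 log10 UMIs from the deepest downward, and summed per library and group. Sums were tested with edgeR 4.0.16 (quasi-likelihood, TMM, genes filtered by filterByExpr, library as a term, which pairs the 2 sums of a library, R 4.3.3, limma 3.58.1), with Benjamini-Hochberg adjustment at 0.05. A standard error is the absolute log2 fold change over the root of F. DESeq2 1.42.0, RLE factors, no filter, no replicate block, no depth matching, other thresholds, thinning, and left-out libraries or barcodes were alternatives. Levels are CPM of the summed nuclei. Intervals are exact Clopper-Pearson intervals at 95%. Python 3.11.15, numpy 2.4.6, scipy 1.17.1, pandas 2.3.3 and matplotlib 3.10.9 were used. GABAergic barcodes had at least 2 UMIs of *Gad1* and *Gad2*, and astrocyte and oligodendrocyte barcodes were chosen by their markers.

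No clustering and no doublet caller was used, and the deposited barcodes could hold doublets. The members, gene lists and tests were chosen with earlier results of these data known. Genes were named if they were in the marker lists, among the 12 highest or lowest fold changes in the main comparison (5 in the others) at 20 CPM or more in both libraries with the same sign, or among the 4 smallest p of a list, with all called Wnt genes. Others named were chosen after their values were seen. Results for a few single genes are not reported here.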

Additional observations from a re-analysis of the deposited data

How the results depend on the processing

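Counts of calls depended on the fit more than single directions did. In the main comparison (511 genes) DESeq2 called 162 genes, the fit with no replicate block 159, no depth matching 1320, *Rspo2* at 1 UMI or more 879, *Slc17a7* at 2 UMIs or more 281 and thinned nuclei 99. With library 1 added and library 2 or 3 left out, 6 to 16 genes passed. Against *Rorb* nuclei (622) DESeq2 called 171, no replicate block 339, and library 1 added with library 2 or 3 left out 0 to 82. Against *Etv1* nuclei (525) DESeq2 called 117 and no replicate block 107, and library 1 could not be added because it held no pair of like depth. Between *Rspo2* nuclei with and without *Etv1* (4), DESeq2 called 15, RLE factors 76, no replicate block 52, no depth matching 283 and no filter 0. The share of *Rspo2* nuclei (11.5%) was 19.1% with 1 UMI or more, 7.93% with 3 or more and 17.0% with *Slc17a7* at 2 UMIs or more. The sign turned for *Esr1* in the main comparison with *Slc17a7* at 2 UMIs or more (0.050, edgeR, adjusted p = 0.993, range over its alternatives 1.4e-05 to 0.993) and for *Grik1* against *Rorb* nuclei in library 2 alone (0.12, against -1.94 in library 3 alone, without a test). The causes were not tested.

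Of 66 called genes named in the main comparison, DESeq2 lost 20, the fit with no replicate block 21 and thinning 32 of 62 with a value. Library 1 added without library 2 lost 48 of 58 and without library 3 lost 61 of 65, and leaving out library 2 or 3 alone moved 25 and 9 values beyond their spread. RLE factors and the fit with no filter lost none. The blocked fit is the main one. The library alone pairs the sums, since nuclei of a library share its preparation. Leaving out library 2 or 3 without adding library 1 left 1 pair, a value with no test. Thinning to 8400 UMIs and the 48 nuclei of library 3 limit what can be seen of low genes.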
